A study of Homo sapiens with 6 samples.

Results

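The genes described here are the 69 protein-coding replication-dependent histone genes, which lie in clusters on chromosomes 6 and 1, with a single gene on chromosome 12. They were chosen by name, with earlier results of these data known. They are the genes named H2AC, H2BC, H3C or H4C followed by a number and the linker histone genes H1-1 to H1-6. They make up 69 of the 21447 genes to which transcripts of the deposited tables were matched. Most were barely present in these libraries. Estimated counts were 0 in all 6 libraries for 18 of the 69 genes, and 21 genes had enough counts to be tested for a change after ionizing radiation (IR). Of these 21, H2BC12, H2AC6 and H2BC18 were called lower after IR, H2BC21 was called higher, and 17 did not pass the test. Among all tested genes, 14.5% were called lower and 15.5% higher. The call of H2BC21 was lost when any 1 of the 6 libraries was left out.

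Replication-dependent histone genes supply the core histones H2A, H2B, H3 and H4, which form the nucleosome, and the linker histone H1, which binds between nucleosomes. They are transcribed mainly in S phase, when newly copied DNA has to be packaged. Most messenger RNAs end in a poly(A) tail, but the main mRNAs of these genes end instead just after a short hairpin, the histone stem-loop, which is bound by the stem-loop binding protein SLBP and is made by a dedicated 3′ end processing complex. Some of these genes also give longer RNAs that run past the hairpin, or skip it by splicing, and carry a poly(A) tail. A library made from poly(A) RNA therefore sees these genes mainly through whatever tailed RNA they make.

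The libraries came from unsynchronized U-2 OS cells, a human osteosarcoma line, with 3 libraries of untreated cells and 3 of cells collected 24 h after 4 Gy of IR. According to the sample labels, poly(A) RNA was taken into an mRNA kit, while the methods of the study name a kit for total RNA. The study describes them as independent samples, but no source used here says whether they were separate cultures, so the p-values measure the spread between these samples, which may be technical. In bulk RNA, fewer cells that express a histone gene cannot be told apart from less RNA per cell.

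Estimated counts totalled 45308792 in IR replicate 3 and between 18573309 and 22953834 in the other 5 libraries. Levels of 1 gene across libraries are given as CPM, counts scaled to the size of each library with the trimmed mean of M-values (TMM). Levels of different genes are compared only as TPM, which the authors scaled by transcript length as well. A gene was called changed at an adjusted p-value under 0.05 in the quasi-likelihood test of edgeR, fitted on all 14323 genes that passed the filter on low counts. Of these genes, 15.5% were called higher after IR, 14.5% lower, and 30.1% in either direction. Among markers of the osteoblast and mesenchymal lineage, the libraries held SPARC at 1918 TPM, VIM at 1227 TPM, COL1A1 at 547 TPM, RUNX2 at 4.29 TPM, ALPL at 1.31 TPM and COL1A2 at 0.568 TPM. TWIST1 was not above the filter. Of these, ALPL rose after IR (log2 fold change 1.09, adjusted p = 0.0072) and RUNX2 fell (-0.36, adjusted p = 0.025). Of 10 markers of other cell types, 4 were at 0 in all libraries, and the list summed to 12.9 to 14.2 CPM in untreated and 13.2 to 15.6 CPM in IR libraries, most of it EPCAM. Of this list CDH1 rose (0.61, adjusted p = 0.0465). The part of these markers in the results below was not tested.

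The hairpin is the feature that sets these genes apart in sequence, so it is printed here for the 4 genes called after IR and for the most abundant tested gene of each family. A stem-loop was found within 150 bases after the stop codon in all 69 genes, between 22 and 67 bases after it, with a median of 35. The consensus of the histone stem-loop, which leaves the bases of the arms that vary open, was searched on the strand of the gene. Among the 19850 other protein-coding genes of the GENCODE annotation, 4 held it in the same window (0.0202%), namely BTBD10, H2AX, H3-4 and H3-7. Sequences are the transcribed strand of GRCh38, written 5′ to 3′, with the 16 bases of the stem-loop in capitals and 6 flanking bases on either side. Positions give the stem-loop itself.
H1-2, chr6:26055744-26055759, minus strand: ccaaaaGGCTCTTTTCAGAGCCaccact
H2AC6, chr6:26124669-26124684, plus strand: cccaaaGGCTCTTTTCAGAGCCccccta
H2BC12, chr6:27146366-27146381, minus strand: cccaaaGGCTCTTTTAAGAGCCacttaa
H2BC18, chr1:149811885-149811900, minus strand: cccaaaGGCTCTTTTCAGAGCCacttca
H2BC21, chr1:149886188-149886203, minus strand: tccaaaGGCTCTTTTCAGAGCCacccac
H3C6, chr6:26225596-26225611, plus strand: tccaaaGGCTCTTCTCAGAGCCaaccac
H4C15, chr1:149860769-149860784, minus strand: cccaaaGGCCCTTTTTAGGGCCgaccac

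The hairpin differed by family. The arm on the 5′ side read GGCCCT in all 15 H4 genes, and in none of the other 54 genes, of which 53 had GGCTCT. The other arm was its exact complement in 67 of 69 genes, and H2AC11 and H2AC15 each had 1 base that was not. The form printed for H1-2 was the most common and was present in 40 of the 69 genes, none of them an H4 gene. The poly(A) signal AATAAA, searched on the strand of the gene, was found within 500 bases after the stop codon in 13 of 69 clustered histone genes (18.8%) and in 41.0% of the other protein-coding genes.

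Detection was uneven between the families. Counts were above 0 in at least 1 library for 51 of 69 genes, above 0 in every library for 32, and at 10 or more in every library for 17. For a gene at 0, the limit that a count of 0 allows is 3 counts in a library, or between 0.0664 and 0.165 CPM, which covers counting error only. The 21 tested genes were 1 of 6 H1 genes, 4 of 17 H2A genes, 8 of 18 H2B genes, 1 of 13 H3 genes and 7 of 15 H4 genes. The 48 genes that were not tested held at most 58 counts over all 6 libraries, and at most 0.954 TPM on average, the level of H3C2. Among them were the linker histone genes H1-3 and H1-5, at 0 in every library, and H1-4, with 20 counts in all. H1-6, the testis linker histone, had 1 count in untreated replicate 1, 2 counts in IR replicate 3 and 0 in the others.

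**Figure D1:**
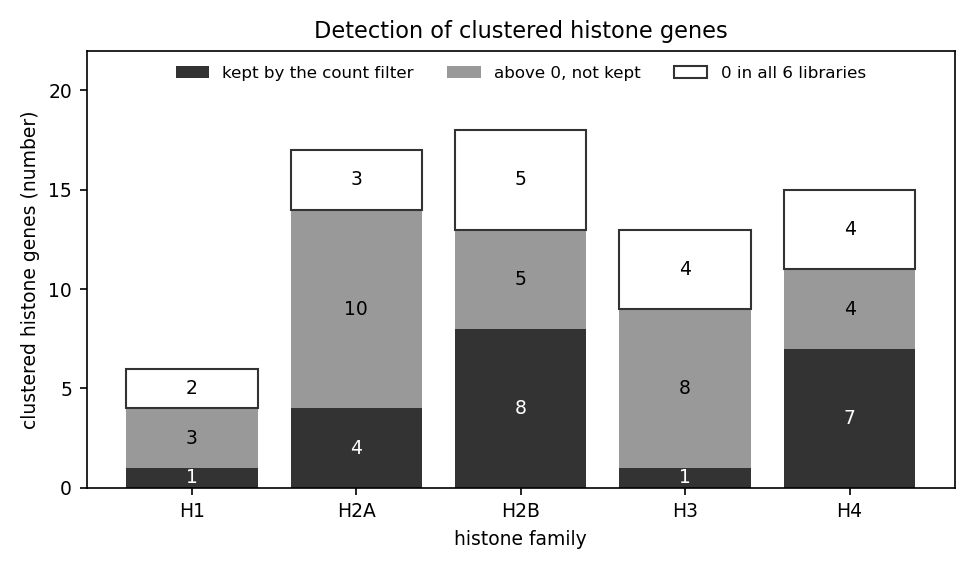
Number of clustered histone genes in each histone family by detection over the 6 libraries, as stacked bars. Black, genes kept by the filter on low counts. Grey, genes with counts above 0 that were not kept. White, genes at 0 in all libraries. H2B and H4 have 8 and 7 genes kept, H1 and H3 have 1 each.

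All 69 genes together took 0.0146% to 0.0183% of the counts in each library. Their summed level was 168 CPM, 167 CPM and 182 CPM in untreated replicates 1, 2 and 3, and 145 CPM, 156 CPM and 160 CPM in IR replicates 1, 2 and 3. On this scale the IR libraries were all below the untreated ones, with group means of 172 CPM in untreated and 154 CPM in IR libraries. Most of this difference lay in H2BC12, with means of 36.9 and 27.8 CPM, and H2AC6, with means of 29.9 and 20.9 CPM. The summed TPM overlapped, at 308.4, 305.6 and 334.3 TPM in untreated and 245.5, 255.99 and 318.6 TPM in IR libraries. The most abundant gene per length was H2BC12, which encodes an H2B, with a mean of 102 TPM over the 6 libraries, a level above that of 89.7% of tested genes. H1-2 followed with 51.4 TPM, then H2BC5 with 29.3 TPM, H2AC6 with 24.9 TPM and H2BC11 with 12.5 TPM.

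The annotated ends of the transcripts that carried these counts were examined next. The deposited tables hold 96 transcripts of the 69 genes, of which 47 end within 20 bases after the stem-loop. Of these 47, 20 were at 0 in all libraries, and their median total over the 6 libraries was 4 counts. Of the other 49 transcripts, 7 were at 0 in all libraries and the median total was 58 counts. Neither median is scaled by transcript length. These 49 run beyond the stem-loop (16 transcripts), lack it because of splicing or another end (15), or are longer in the deposited table than in the annotation used here (18). The annotation used here does not show at which end the extra length of the 18 lies. Genes with any of these 49 transcripts made up 16 of the 21 tested genes and 13 of the 48 that were not tested. This difference is a description of the annotation and was not tested.

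Transcripts that end at the stem-loop still took between 37.3% and 44.5% of the counts of these genes in each library. Per length they were the larger part in every library. They held 197, 195 and 206 TPM in untreated and 148, 159 and 210 TPM in IR libraries. The other 49 transcripts held 111, 110 and 128 TPM in untreated and 97.9, 97.4 and 109 TPM in IR libraries. Most of the stem-loop end counts were those of H1-2 and H2BC12, for which the tables hold 1 transcript each. Reads of a longer RNA in the shared part could therefore not be told apart from that transcript. Without these 2 genes, the stem-loop end transcripts of the other 45 genes held 168, 221 and 243 counts in the untreated libraries and 192, 160 and 470 counts in the IR libraries. H2AC6 shows the opposite arrangement. Its transcript that ends 6 bases after the stem-loop was at 0 in all libraries. All counts of H2AC6 lay on a spliced transcript that runs 1128 bases past the stem-loop, with AATAAA in its last 60 bases, and on another spliced transcript without the stem-loop. The annotation gives the former the class of nonsense-mediated decay. Counted transcripts of H2BC15, H4C8, H4C14, H4C15 and H4C16 carry the same class.

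**Figure D2:**
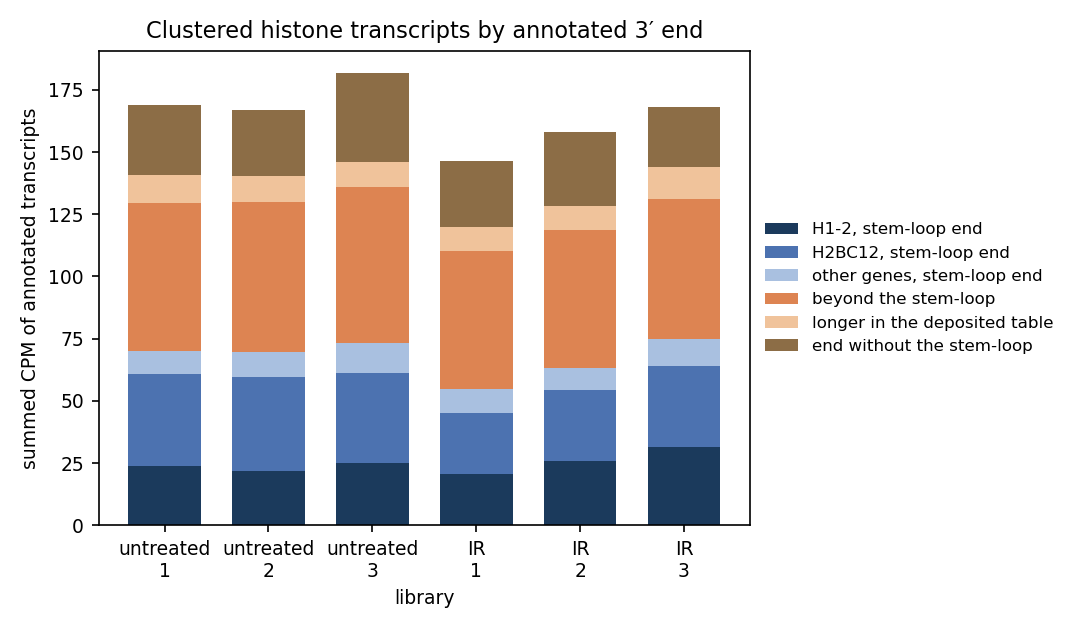
Summed CPM of the 96 annotated transcripts of clustered histone genes in each library, stacked by annotated 3′ end and scaled by the TMM factors of the transcript fit, so that IR replicate 3 is slightly higher here than in the sums over genes. Blue shades, transcripts that end at the stem-loop, split into H1-2, H2BC12 and all other genes. Orange and brown shades, transcripts that run beyond it, are longer in the deposited table or lack it. Apart from H1-2 and H2BC12, stem-loop end transcripts are a thin band in every library.

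To ask how the detected histone genes change after IR, the tested members were read from the fit over all genes. One gene was called higher and 3 lower of 21 tested, beside 15.5% called higher and 14.5% called lower among all tested genes, so that neither share of the histone genes exceeded this background. The log2 fold change was positive in 7 and negative in 14 genes. With trends with GC content removed, 5 genes that were not called changed sign, namely H1-2 (-0.04), H2AC11 (-0.14), H2AC18 (-0.07), H4C5 (-0.07) and H2BC4 (0.01). Before that correction, the median log2 fold change of the 21 genes was -0.19, beside 0.01 over all tested genes. It was -0.0059 without untreated replicate 3. IR libraries lay above all untreated libraries for 2 genes and below them for 4, where 23.8% and 23.3% of all tested genes did so.

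**Figure D3:**
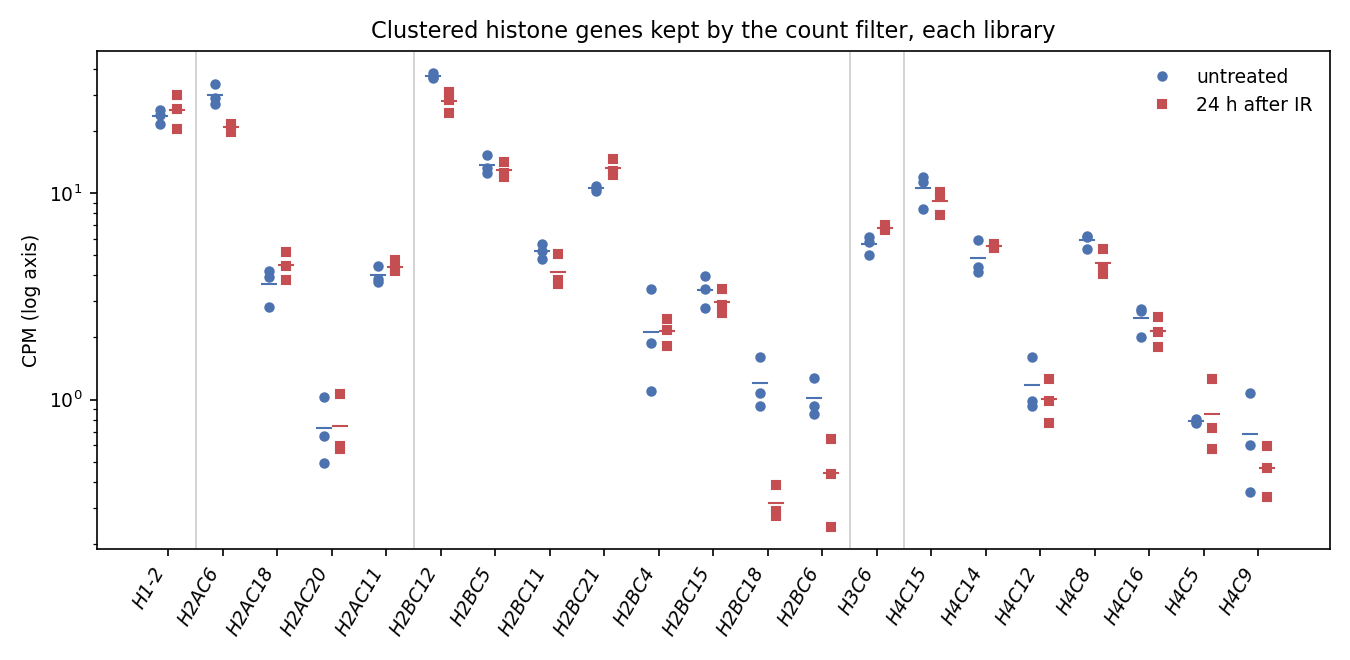
CPM (log axis) of the 21 tested clustered histone genes in each library, ordered by family and by mean TPM within the family. Blue circles, untreated. Red squares, 24 h after IR. Horizontal lines, group means (n = 3). The groups do not overlap for H2AC6, H2BC12, H2BC21, H2BC18, H2BC6 and H3C6.

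The linker histone H1-2 (ENSG00000187837, chr6:26055740-26056470) was the only H1 gene tested. Its level was 23.8 CPM, 21.7 CPM and 25.3 CPM in untreated and 20.4 CPM, 25.6 CPM and 30.0 CPM in IR libraries. The groups overlapped. The log2 fold change was 0.12 with a 95% interval from -0.17 to 0.40 (adjusted p = 0.528).

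Among the H2A genes, H2AC6 (ENSG00000180573, chr6:26124145-26139116) fell after IR. It stood at 29.0 CPM, 27.0 CPM and 33.8 CPM in untreated and at 21.3 CPM, 21.7 CPM and 19.8 CPM in IR libraries. All IR libraries were below all untreated ones, and the log2 fold change was -0.52 ± 0.10 (SE, n = 3 per group, adjusted p = 0.0039). The call held in each of the 16 alternative fits, GC correction among them, between -0.59 and -0.40. H2AC6, at 41.9% GC, lies in the second-lowest eighth of tested genes by GC content, where 25.6% of genes were called lower and 4.75% higher. Of its 31-base stretches, 98.2% occur in no other gene of the annotation, so that few of its reads could belong elsewhere.

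H2AC18 was at 2.80 CPM, 3.92 CPM and 4.202 CPM in untreated and 4.45 CPM, 3.81 CPM and 5.20 CPM in IR libraries, and the groups overlapped (log2 fold change 0.31, adjusted p = 0.267). Its sequence is shared in full with H2AC19, which had 30 counts in all, so that the split between them is an estimate. H2AC11, at 0.14, and H2AC20, at -0.01, were not called.

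The H2B family held 3 of the 4 calls, from 8 tested genes, beside 30.1% called in either direction among all tested genes. H2BC12 (ENSG00000197903, chr6:27146361-27146855) was at 36.7 CPM, 38.0 CPM and 36.2 CPM in untreated and at 24.4 CPM, 28.2 CPM and 30.9 CPM in IR libraries. Again no IR library reached the untreated ones, and H2BC12 fell by 0.40 on the log2 scale with an SE of 0.09 (adjusted p = 0.0098). The call was lost with an offset for effective length (-0.36, adjusted p = 0.0815), a setting under which 11.9% of all tested genes were called. In these libraries fold changes rose with GC content, from a median of -0.19 in the eighth of genes with the lowest GC to 0.34 in the highest. H2BC12, at 58.2% GC, lies in the seventh eighth, where 27.6% of genes were called higher and 3.02% lower, and with GC trends removed its log2 fold change was -0.60 (adjusted p = 0.00042). Only 29.0% of its 31-base stretches are its own. The gene it shares most with, H2BC12L, was at 0 in all libraries, and that 0 is itself an estimate of how shared reads were split.

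H2BC18 (ENSG00000203814, chr1:149782689-149812373) had the largest fold change of the tested histone genes and few counts. It was at 0.93 CPM, 1.61 CPM and 1.08 CPM in untreated libraries, from 17, 36 and 22 counts, and at 0.39 CPM, 0.27 CPM and 0.29 CPM in IR libraries, from 8, 5 and 13 counts. The groups did not overlap, and H2BC18 fell by 1.94 on the log2 scale with an SE of 0.36 (adjusted p = 0.0039). All but 1 of its 101 counts lay on 1 spliced transcript of 752 bases, for which the annotation gives neither the stem-loop nor a defined coding sequence. The values of H2BC18 are therefore those of that RNA, and 44.9% of its 31-base stretches are unique. The gene that H2BC18 shares most sequence with, H3-7, held 28, 17 and 7 counts in untreated and 7, 10 and 27 in IR libraries.

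H2BC21 (ENSG00000184678, chr1:149884459-149886682) was the only clustered histone gene called higher. It was at 10.5 CPM, 10.8 CPM and 10.3 CPM in untreated and at 14.6 CPM, 12.3 CPM and 12.7 CPM in IR libraries, without overlap. The log2 fold change was 0.32 ± 0.11 (SE, n = 3 per group, adjusted p = 0.0444). This call was lost when any 1 of the 6 libraries was left out, with adjusted p-values from 0.0546 to 0.144, as well as without the filter on low counts (0.0551), with the DESeq2 Wald test (0.0875) and with the length offset (0.116). Its direction was higher in all 16 alternatives. Its counts lay on a transcript of 1 exon that runs 1729 bases past the stem-loop and has AATAAA in its last 60 bases.

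The other 5 tested H2B genes were not called. H2BC5, second to H2BC12 in TPM, was at 13.3 CPM, 12.5 CPM and 15.2 CPM in untreated and 12.5 CPM, 14.2 CPM and 11.9 CPM in IR libraries, with overlap (log2 fold change -0.09, 95% interval from -0.35 to 0.16). H2BC6 was at 0.93 CPM, 0.85 CPM and 1.27 CPM in untreated and 0.24 CPM, 0.44 CPM and 0.64 CPM in IR libraries. Its groups did not overlap, but at 5 to 29 counts per library its log2 fold change of -1.10 ± 0.38 (SE, n = 3 per group) missed the threshold (adjusted p = 0.0533). It passed with edgeR's likelihood ratio test (0.0223) and without IR replicate 3 (-1.59, adjusted p = 0.0316). H2BC11, at -0.31, H2BC15, at -0.19, and H2BC4, at -0.01, had overlapping groups.

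H3C6 (ENSG00000274750, chr6:26224199-26227473) was the only H3 gene tested. It stood at 5.82 CPM, 5.04 CPM and 6.11 CPM in untreated and at 7.02 CPM, 6.70 CPM and 6.60 CPM in IR libraries. All IR libraries were above the untreated ones, yet the log2 fold change of 0.26 ± 0.14 (SE, n = 3 per group) did not pass the test (adjusted p = 0.183). Its counts lay on a spliced transcript that runs beyond the stem-loop.

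No H4 gene was called among 7 tested by edgeR, and none had groups without overlap. Among all tested genes, 30.1% were called in either direction. In 23.8% all IR libraries lay above the untreated ones, and in 23.3% below them. Whether the H4 genes differ from these shares was not tested. H4C15 was at 8.35 CPM, 11.996 CPM and 11.3 CPM in untreated and 7.84 CPM, 10.1 CPM and 9.59 CPM in IR libraries (log2 fold change -0.21, adjusted p = 0.342). H4C14 was at 5.93 CPM, 4.15 CPM and 4.398 CPM in untreated and 5.66 CPM, 5.50 CPM and 5.42 CPM in IR libraries (0.20, adjusted p = 0.398). These 2 genes share nearly all their sequence, so that the split of reads between them is an estimate too. H4C8 had a log2 fold change of -0.38, with a 95% interval from -0.75 to -0.02 and an adjusted p of 0.105. H4C9 (-0.53), H4C16 (-0.20), H4C12 (-0.19) and H4C5 (0.05) had wider intervals. The DESeq2 Wald test and the likelihood ratio test called no H4 gene either.

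**Figure D4:**
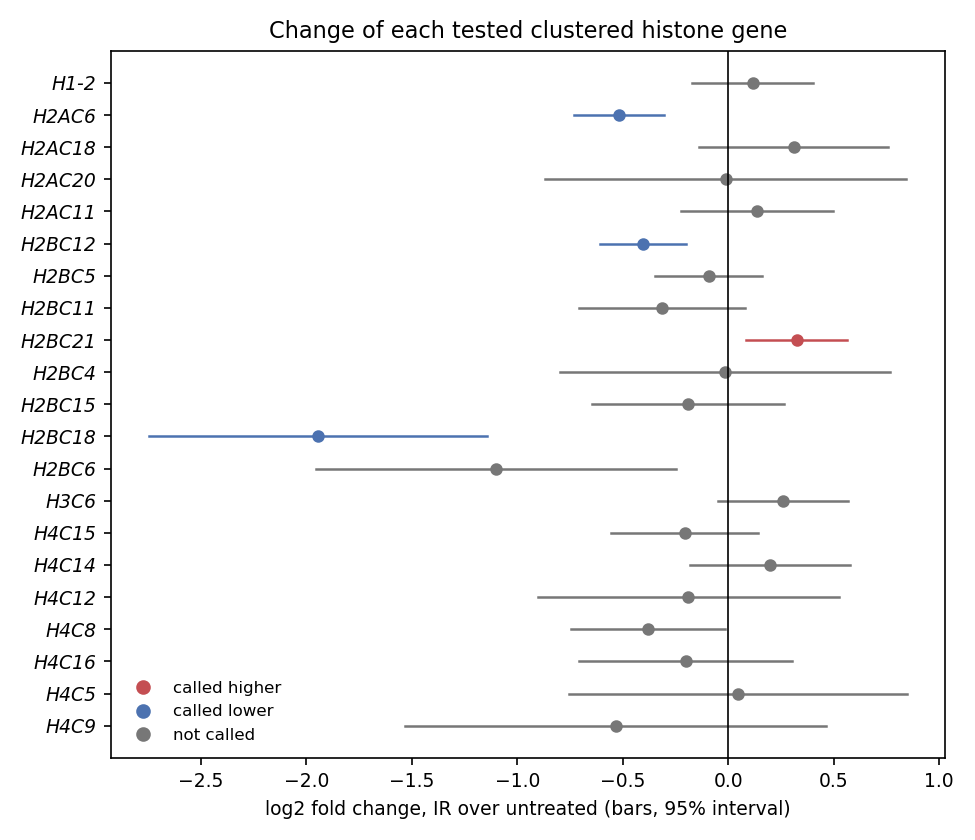
Log2 fold change, IR over untreated, of the 21 tested clustered histone genes, with 95% intervals from the edgeR fit as bars (n = 3 libraries per group). Blue, called lower. Red, called higher. Grey, not called. H2BC18 and H2BC6, the genes of fewest counts among the H2B genes shown, have the lowest values, -1.94 and -1.10, and the H4 genes all have intervals that meet or come within 0.02 of 0.

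In 4 pairs of genes, each gene shares at least 90% of its 31-base stretches with the other, and most reads of either could come from both. Summed before the fit, H4C14 and H4C15 had 14.3 CPM, 16.1 CPM and 15.7 CPM in untreated and 13.5 CPM, 15.6 CPM and 15.01 CPM in IR libraries, a log2 fold change of -0.07 with a 95% interval from -0.28 to 0.15. H3C14 and H3C15, which the deposited tables list with identical values, passed the filter once summed, at 0.66 CPM, 0.71 CPM and 0.59 CPM in untreated and 0.77 CPM, 0.87 CPM and 0.97 CPM in IR libraries. The groups of that pair did not overlap, and its log2 fold change was 0.43 (adjusted p = 0.289). H2AC18 with H2AC19 had 0.39 (adjusted p = 0.202), and H4C11 with H4C12 had -0.19 (adjusted p = 0.687).

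By place, the sum of the 21 genes of the distal cluster on chromosome 6p, which holds H2BC12, was 52.7 CPM, 53.2 CPM and 51.4 CPM in untreated and 37.2 CPM, 41.7 CPM and 45.4 CPM in IR libraries. The IR libraries were below the untreated ones, and H2BC12 alone made up most of the sum. The 34 genes of the proximal cluster on 6p summed to 82.2 CPM, 77.4 CPM and 94.7 CPM in untreated and 70.1 CPM, 79.4 CPM and 77.1 CPM in IR libraries, with overlap. The 11 genes of the cluster at 1q21, which holds H2BC18 and H2BC21, summed to 29.8 CPM, 33.9 CPM and 33.0 CPM in untreated and 34.9 CPM, 33.5 CPM and 35.5 CPM in IR libraries, also with overlap.

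Single transcripts gave less. In a fit over 56752 transcripts, the quasi-likelihood test of edgeR called 0, whether of histone genes or not, while 10.7% had an unadjusted p under 0.05. Of 29 histone transcripts tested, 3 had an unadjusted p under 0.05, and all 3 were lower after IR. They were the 752-base transcript of H2BC18 (-1.87), the transcript of H2AC6 that runs past the stem-loop (-0.54) and the transcript of H2BC12 (-0.38). The likelihood ratio test called 1.26% of all transcripts and no histone transcript, and the DESeq2 Wald test called 5.29% of all transcripts and 2 histone transcripts, both lower. The counts of the H2AC6 transcript that runs past the stem-loop were 406, 494 and 477 in untreated and 303, 261 and 747 in IR libraries, the last from the library of highest depth. Those of its other spliced transcript were 122, 111 and 214 in untreated and 138, 138 and 146 in IR libraries, a log2 fold change of -0.32 (unadjusted p = 0.484).

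Where a histone gene had more than 1 tested transcript, their point estimates often differed, but with wide errors. No difference between transcripts of a gene was tested. The 3 transcripts of H2BC11 had log2 fold changes of -0.76 for the one that ends at the stem-loop, and of -0.21 and 0.86 for 2 spliced ones, none with an unadjusted p under 0.05. The one at 0.86 had 12, 14 and 0 counts in untreated and 4, 17 and 52 counts in IR libraries, so that the spread within a group was as wide as the difference. The 3 transcripts of H4C14 were at -0.61, 0.66 and 0.20, with SEs of 2.03, 1.40 and 0.32. The 2 of H4C15 were at -0.26 and 0.14, with SEs of 0.29 and 0.49. All of these are shared almost wholly with the paired gene. The 2 of H4C8, both of which run past the stem-loop, were at -0.23 and -0.66, with SEs of 0.31 and 0.44. The 2 spliced ones of H2BC15 were at -0.52 and -0.02, with SEs of 0.44 and 0.30. Beside H2BC12 and H2BC18, given above, the genes with a single tested transcript were H1-2 (0.14), H2AC11 (0.17), H2AC18 (0.34), H2AC20 (0.06), H2BC21 (0.35), H2BC4 (0.18), H2BC5 (-0.08), H2BC6 (-1.15), H3C6 (0.29), H4C12 (-0.19), H4C16 (-0.0077), H4C5 (0.13) and H4C9 (-0.50), on the scale of the transcript fit. For H2BC4 and H4C16, whose further transcripts did not pass the filter, these values differ from those of the gene, -0.01 and -0.20.

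The machinery that makes and uses histone mRNA was read from the same fit, and each count below stands beside 14.5% called lower and 15.5% called higher among all tested genes. Of 9 genes that act in transcription of histone genes, 5 fell and none rose, with a median log2 fold change of -0.27. NPAT, the coactivator of histone loci that is a target of cyclin E and CDK2, fell by 0.44 on the log2 scale, from 36.1 to 37.6 CPM in untreated to 24.9 to 29.7 CPM in IR libraries (adjusted p = 0.0039). CCNE2, which encodes cyclin E2, fell by 0.71, CASP8AP2, which encodes a partner of NPAT at histone loci, by 0.66, and POU2F1, the octamer-binding factor that acts at H2B promoters, by 0.66. The IR libraries of these 4 genes were all below the untreated ones.

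Of 16 genes of histone 3′ end processing, 1 fell and none rose. That gene was NCBP1, a cap-binding protein (-0.23, adjusted p = 0.0374), and its call was lost with GC trends removed (adjusted p = 0.286) and without any 1 untreated library or IR replicate 2. SLBP, which binds the stem-loop, was at 54.2 CPM, 48.4 CPM and 53.8 CPM in untreated and 47.2 CPM, 45.6 CPM and 41.5 CPM in IR libraries. Its groups did not overlap, but its log2 fold change of -0.22 ± 0.08 (SE, n = 3 per group) narrowly missed the threshold (adjusted p = 0.0545). It passed it with DESeq2's size factors (0.0499), with the likelihood ratio test (0.0464) and without IR replicate 1 (0.0381).

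Of 7 genes of translation and decay of histone mRNA, 3 fell and 1 rose. TUT7 (-0.49) and TUT4 (-0.40), which add uridines to the ends of RNAs, and ERI1 (-0.26), a nuclease that trims the stem-loop end, fell, and MIF4GD (0.41), a partner of SLBP in translation, rose. With GC trends removed, the calls of ERI1 (adjusted p = 0.296) and MIF4GD (adjusted p = 0.0900) were lost, and each was also lost on leaving out any of several single libraries. Of 16 genes of the general poly(A) machinery, 3 fell and none rose, near the 14.5% of all tested genes, namely NUDT21 (-0.35), CSTF2T (-0.31) and PCF11 (-0.33), the last of which was not called without untreated replicate 1 or 2.

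Of 26 histone chaperone genes, 10 fell and 1 rose. The lowest p-values were those of ANP32E (-0.60), which removes H2A.Z from nucleosomes, UBN2 (-0.53), a subunit of the HIRA complex, MMS22L (-0.36), a partner of TONSL, and HJURP (-0.40), the chaperone of CENP-A. TONSL, which reads newly deposited H4, was the one that rose (0.43), and its value was -0.0037 with GC trends removed (adjusted p = 0.977). Of 11 tested replication-independent histone genes, 2 fell and none rose, also near the 14.5% of all tested genes. H2AZ2, which encodes a form of H2A.Z, fell by 0.25 on the log2 scale, a call lost without untreated replicate 1, untreated replicate 3 or IR replicate 2. H2AX, singled out here after its values were seen because its gene also carries a stem-loop, had a log2 fold change of 0.21 that was not called (adjusted p = 0.136), and with GC trends removed it was -0.28 and called lower (adjusted p = 0.0138).

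Of 43 S phase genes, 26 fell and none rose, with a median of -0.26. E2F8 (-0.87), a transcription factor of the E2F family, WDR76 (-0.74), ATAD2 (-0.69), a chromatin ATPase, and RRM2 (-0.51), a subunit of ribonucleotide reductase, had the lowest p-values. CCNE2, CASP8AP2, SLBP, NASP and CHAF1B belong to this list as well as to the lists above. With the offset for effective length, the S phase genes called lower were 13, and the calls of NPAT, NCBP1, TUT7, ERI1, MIF4GD, NUDT21, CSTF2T, PCF11 and H2AZ2 were lost.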

How the data were processed

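Bulk RNA-seq libraries of U-2 OS cells, 3 untreated and 3 collected 24 h after 4 Gy of IR, were grouped by the sample labels. Per the study's methods, the authors used fastp for adaptors and kallisto for pseudoalignment, with GENCODE release 37 (GRCh38). Estimated counts per transcript were deposited as kallisto gave them, with no scaling. TPM values, which the authors also deposited, take effective length and library total into account. Gene symbols, ends and sequence come from GENCODE release 44, joined on transcript identifiers. Of 161171 transcripts, 2460 had no match and were dropped, which left 98.2% to 98.5% of the counts in each library. Release 37 was not used here.

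Members and lists were chosen with earlier results of these data known. Estimated counts were summed per gene, rounded and filtered by filterByExpr. The quasi-likelihood F-test of edgeR 4.0.16 (glmQLFit, glmQLFTest, two-sided, TMM scaling) was run on all genes kept, in R 4.3.3 with limma 3.58.1, and p-values were adjusted after Benjamini–Hochberg. DESeq2 1.42.0 served as an alternative. An SE is the log2 fold change, without sign, divided by the root of F. CPM uses TMM-scaled library sizes, of genes for gene values and of transcripts for transcript values. TPM values of transcripts were summed per gene. Uniqueness is the share of the stretches of 31 bases in a gene's transcripts that occur in no other gene of release 44. GC content of a gene is the mean over its transcripts weighted by TPM, and trends with GC were removed by a spline with 6 degrees of freedom per library. Scripts were tested on simulated data.

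Every tested member is named. Values in every library are given for each called member and for the 2 tested members of highest mean TPM in a family. From each list, up to 4 called genes of lowest p-value are named, with NPAT and SLBP. A gene that this rule selects is not reported here. H2BC6, TONSL, MIF4GD and H2AX were added after their values were seen. Alternatives were other filters, DESeq2 size factors, the DESeq2 Wald test, the likelihood ratio test, a replicate block, GC and effective length offsets, and leaving out each library. Summing near-identical pairs, and further tests of transcripts, were chosen after seeing the data. Replicates of a group differed by more than sampling noise, with a chi-square per gene between 3.45 and 32.2.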

Additional observations from a re-analysis of the deposited data

How the results depend on the processing

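Over the alternatives, the number of clustered histone genes called lower stayed between 2 and 4. The 1 gene called higher, H2BC21, was not called without the filter, with the DESeq2 Wald test, with the replicate block or with the effective length offset (0 genes each), nor in any of the 6 fits that left out a library (0 to 0 genes). Leaving out single libraries gave 3 to 4 genes called lower. No histone transcript was called higher or lower in those fits (0 to 0). With all 6 libraries the same test called 0 of 56752 transcripts of any gene, so this says little about histone transcripts. The DESeq2 Wald test called 2 histone transcripts lower. Of the 123 tested genes of the histone-related and S phase lists, 48 were called lower and 2 higher. With the length offset these were 23 and 1, with the replicate block together with the GC correction 1 was higher, and leaving out single libraries gave 34 to 51 lower and 1 to 2 higher. TONSL and H2AX changed direction with the GC correction, at -0.0037 (-0.0035 with the replicate block too) and -0.28 (-0.28 with the block too). With the GC correction the uncalled histone genes H1-2, H2AC11, H2AC18, H4C5 and H2BC4 changed sign as well. The call of MMS22L was lost with the replicate block and GC correction together (adjusted p = 0.0543).

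No shared deviation was seen between libraries of the same replicate number. Their deviations from the group means correlated at -0.02, 0.0072 and -0.05, and differently numbered pairs lay between -0.05 and 0.06. With 3 libraries per group, this cannot show whether the samples were paired. With the replicate block, 4 histone genes were called lower, H2BC6 being added (-1.21, adjusted p = 0.0474), and H2BC21 was lost (0.32, adjusted p = 0.0797). The block moved the number of calls over all genes from 2227 higher and 2080 lower to 1727 and 1624. With the GC correction, calls over all genes were 1542 higher and 1903 lower. Depth limits what can be said of the 48 untested genes, and of genes at about 1 CPM or less, where H2AC20, H4C9, H4C5 and H2BC6 had SEs from 0.36 to 0.45. For such genes a change was not detectable at this depth unless it was large.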
